A study of Homo sapiens with 24 samples.

Results

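CD200 and 6 other genes through which neurons signal to microglia, CD47, CX3CL1, CD22, CD24, IL34 and CSF1, were followed in 3D aggregates of LUHMES cells exposed to rotenone. The genes were listed by name for their role, with earlier results of these arrays known, and CD200 is named by the study itself, so that its tests here are not independent evidence. A probe was taken as a gene's own when its RefSeq accession belonged to that gene. Of the 7 genes, 6 had such a probe among the 21236 genes tested, and CX3CL1 was not analysed here. LUHMES is a conditionally immortalised human mesencephalic line that becomes dopaminergic neurons when its transgene is shut off by tetracycline, and every group was differentiated in the same medium with tetracycline, cAMP, GDNF and N2. On day 7 of differentiation the aggregates received 50 nM rotenone for 12 h, 50 nM for 24 h, 100 nM for 24 h, or DMSO as solvent control, rotenone being an inhibitor of mitochondrial complex I. Part of the material was collected right after exposure (day 8), and the rest was washed free of rotenone and collected on day 15. Each of the 8 groups had 3 single-color Agilent arrays, numbered as replicates, all of 1 cell line. The p-values measure the spread between these replicates, each on its own slide, which may also hold differences between slides.

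CD200 is a membrane glycoprotein of neurons whose receptor on microglia holds these cells in a resting state. CD47 signals through SIRPA and restrains phagocytosis, CD24 does so through SIGLEC10, and CD22 is a sialic acid-binding lectin. IL34 and CSF1 are the ligands of CSF1R, on which microglia depend for survival, and CX3CL1 is the ligand of CX3CR1. All 9 neuron markers were well above background on all 24 arrays, whereas 0 of 11 microglia markers with a probe were, and 7 of the 11, including P2RY12, CSF1R, ITGAM and CX3CR1, were well above background in no group. TMEM119, PTPRC and TYROBP were well above background in 7 of the 8 groups each. The summed linear signal of the microglia list was 282 to 303 in DMSO and 257 to 297 after 100 nM on day 8, and 278 to 292 and 302 to 315 on day 15. Among dopaminergic markers, TH, SLC6A3, NR4A2, PITX3 and EN1 were well above background on all 24 arrays, while SLC18A2 and ALDH1A1 were so in no group.

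The 4 members whose promoters could be read from RefSeq (GRCh38.p14) were CD200, CD47, CD24 and CD22. The promoters of CD200 (chr3:112332906-112333205, plus strand) and CD47 (chr3:108090982-108091281, minus strand) are shown because these genes fell together on day 8 and moved in opposite directions between day 8 and day 15. Each runs 5′ to 3′ from 250 bases before the start site to 50 bases after it, and capitals mark the GC box GGGCGG on either strand.
CD200: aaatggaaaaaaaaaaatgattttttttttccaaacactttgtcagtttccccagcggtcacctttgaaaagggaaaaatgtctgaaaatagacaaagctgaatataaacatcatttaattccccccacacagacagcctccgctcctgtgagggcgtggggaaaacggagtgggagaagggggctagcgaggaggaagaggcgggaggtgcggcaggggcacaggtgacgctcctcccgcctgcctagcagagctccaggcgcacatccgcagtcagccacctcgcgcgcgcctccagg
CD47: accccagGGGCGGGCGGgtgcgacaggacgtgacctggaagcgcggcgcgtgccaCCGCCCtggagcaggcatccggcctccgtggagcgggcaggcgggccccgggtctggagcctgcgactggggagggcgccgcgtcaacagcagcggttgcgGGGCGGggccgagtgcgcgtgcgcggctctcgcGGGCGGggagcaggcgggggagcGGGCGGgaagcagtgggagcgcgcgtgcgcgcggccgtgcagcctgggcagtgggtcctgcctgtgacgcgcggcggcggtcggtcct
The CD47 promoter held 6 GC boxes, overlapping matches counted, and the CD200 promoter held 0. Of 35116 promoters of the same length, 45% held at least 1. GC content was 79% for CD47 and 53.7% for CD200, against a median of 58.7% over all promoters, and the number of CG pairs was 45 and 15. Neither promoter held the CRE (TGACGTCA), the AP-1 site (TGANTCA), the E-box (CACGTG), the core of the amino acid response element (TGATGNAA), the ETS core (CCGGAAG) or the NRF1 site on either strand, and these were found in 1.85%, 7.71%, 7.26%, 3.62%, 10.3% and 1.24% of all promoters. Both genes lie on the same chromosome, CD200 at chr3:112332573-112362812 and CD47 at chr3:108043091-108091031. The CD200 window lies inside its locus, so its start site is not the outermost of the gene, whereas the CD47 window spans the end of its locus.

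Unless another setting is named, values below are log2 normalized intensities, with slide 1 adjusted against slides 2 and 3. Differences given within slides were taken before that adjustment. The arrays lay on 3 slides, and the replicate number was the slide number. Slide 1 had the largest share of spots well above background, 67.3% to 82.4%, compared with 53.6% to 60.8% for slide 2 and 50.9% to 62.4% for slide 3. The array of 100 nM rotenone on day 15 on slide 3 stood apart, with a residual SD over genes of 0.45 against 0.20 to 0.31 on the other arrays. The scan name of the day 15 DMSO array on slide 1 does not name DMSO and gives a 12 h exposure, so that its group rests on the sample label alone.

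CD200 was lower after 24 h of rotenone on day 8, at both doses, and on day 15 its level was higher in every group than in the matching group of day 8. It was read by a pair of probes. The first was printed as 10 spots per array and was well above background on all 24 arrays, and the second was printed as 1 spot and was well above background on 16. On day 8 the first probe read 6.80, 6.62 and 6.54 in DMSO, and 6.37, 6.18 and 6.35 after 50 nM for 12 h. It read 5.46, 5.46 and 5.75 after 50 nM for 24 h. After 100 nM for 24 h it read 5.47, 5.73 and 5.50. The 24 h arrays lay below all DMSO and all 12 h arrays, and the doses overlapped. On day 15 the probe read 7.90, 7.87 and 8.04 in DMSO, 7.28, 7.53 and 7.62 after 50 nM for 12 h, and 7.42, 7.70 and 7.34 after 50 nM for 24 h. After 100 nM it read 6.99, 7.18 and 6.17. All 9 exposed arrays of day 15 lay below the 3 DMSO arrays, and the lowest was the slide 3 array that stood apart.

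**Figure D1:**
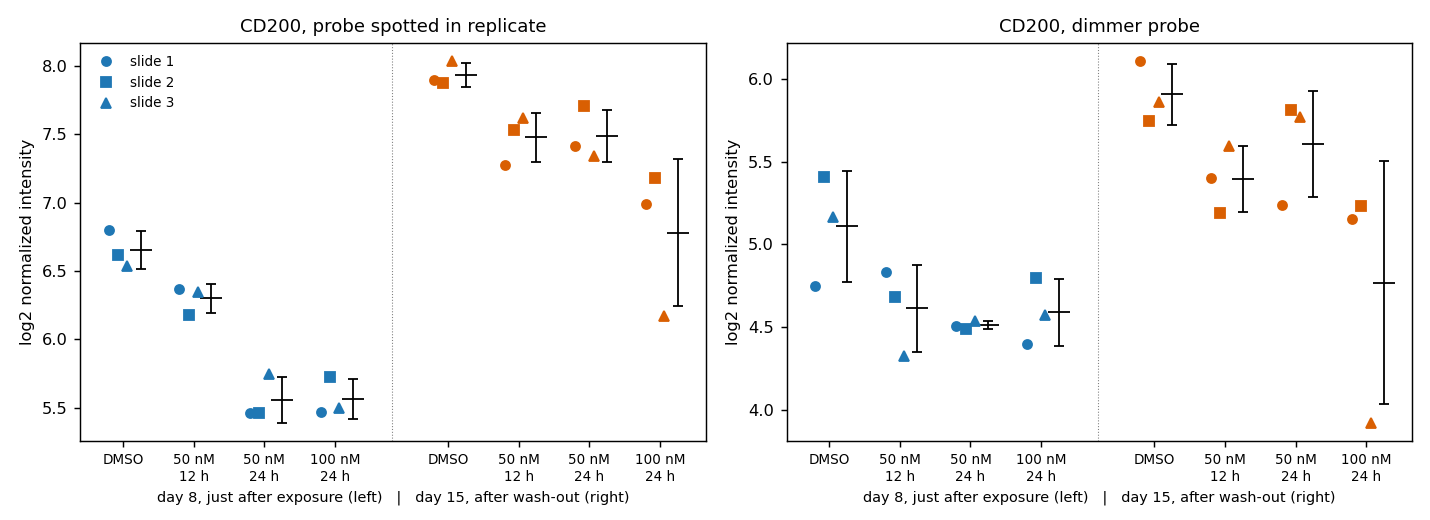
Log2 normalized intensity of CD200 for its 10-spot probe (left) and its dimmer single-spot probe (right), by dose and duration on day 8 (blue) and day 15 (orange). Symbols are arrays by slide, bars are mean ± SD of 3 arrays; on the left probe the exposed arrays of each day lie below that day's DMSO arrays.

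Over both probes averaged, CD200 fell on day 8 by 0.80 (SE 0.21) after 100 nM for 24 h, 1.75-fold, with an adjusted p of 0.0174 from limma over all genes. After 50 nM for 24 h it fell by 0.85 (adjusted p = 0.0145), 1.80-fold. With 50 nM for 12 h the log2 difference was -0.43 with a 95% interval of -0.86 to 0.01 (adjusted p = 0.313), and 3 of 3 arrays were lower than all DMSO arrays. Within slides, the averaged difference after 100 nM was -0.83, -0.74 and -0.82, the same direction on each slide. The first probe alone gave -1.29, -0.87 and -1.04, and the second -0.37, -0.62 and -0.60. The sizes were thus nearly the same only for the average of the probes. The first probe alone fell by 1.09 (2.13-fold, adjusted p = 0.0019 over all probes) after 100 nM and 2.14-fold (adjusted p = 0.00246) after 50 nM for 24 h. The second probe was not well above background on any array of either 24 h group. Its mean was 5.11 in DMSO, 4.59 after 100 nM and 4.51 after 50 nM for 24 h, with adjusted p-values of 0.42 and 0.329, and its arrays overlapped with DMSO after 100 nM. No fold is given for it alone, but it enters the averaged folds of 1.75 and 1.80 above. Without the slide adjustment the adjusted p of CD200 after 100 nM on day 8 was 0.11, and with slides 2 and 3 alone it was 0.366, at differences of -0.80 and -0.78. Leaving out DMSO replicate 2, or 100 nM replicate 1 or 3, gave adjusted p-values of 0.072, 0.0803 and 0.059. For 50 nM over 24 h the adjusted p was above 0.05 with no slide adjustment (0.094), with slides 2 and 3 alone (0.31), and without DMSO replicate 2 (0.0633) or without 50 nM replicate 1 (0.0544) or 2 (0.0519).

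On day 15 the largest difference of CD200 was after 100 nM, -1.15 (SE 0.21), 2.22-fold lower, with an unadjusted limma p of 2.68e-05 and an adjusted p of 0.103. Only 4 of 21236 genes had a smaller p in that comparison. Within slides the difference was -0.97, -0.55 and -1.98, the largest on slide 3. The first probe gave -1.16 and the second -1.14 (adjusted p = 0.11 and 0.468 over all probes). The second probe was well above background on only 2 of the 3 arrays after 100 nM. It read 5.15, 5.23 and 3.92 there, the lowest on slide 3. Without the slide 3 array that stood apart the difference was -0.78 (adjusted p = 0.395), and without DMSO replicate 1 it was -1.11 (adjusted p = 0.203). The adjusted p came below 0.05 without 100 nM replicate 1 (0.0376) or replicate 2 (0.0304), with the brighter probe alone (0.0393) and with a background offset of 50 (0.0149). For 50 nM over 24 h the difference was -0.37 (95% interval -0.81 to 0.06), and after 50 nM for 12 h it was -0.49 (-0.92 to -0.05), with adjusted p-values of 1. CD200, averaged over its probes, was lower than DMSO on 3 of 3 slides in all 6 comparisons of rotenone with DMSO. The smallest difference was -0.02, on slide 2 after 50 nM for 24 h on day 15. The second probe alone was higher than DMSO there, by 0.095, and on slide 1 after 50 nM for 12 h on day 8, by 0.025. The 3 comparisons of each day share their DMSO arrays.

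**Figure D2:**
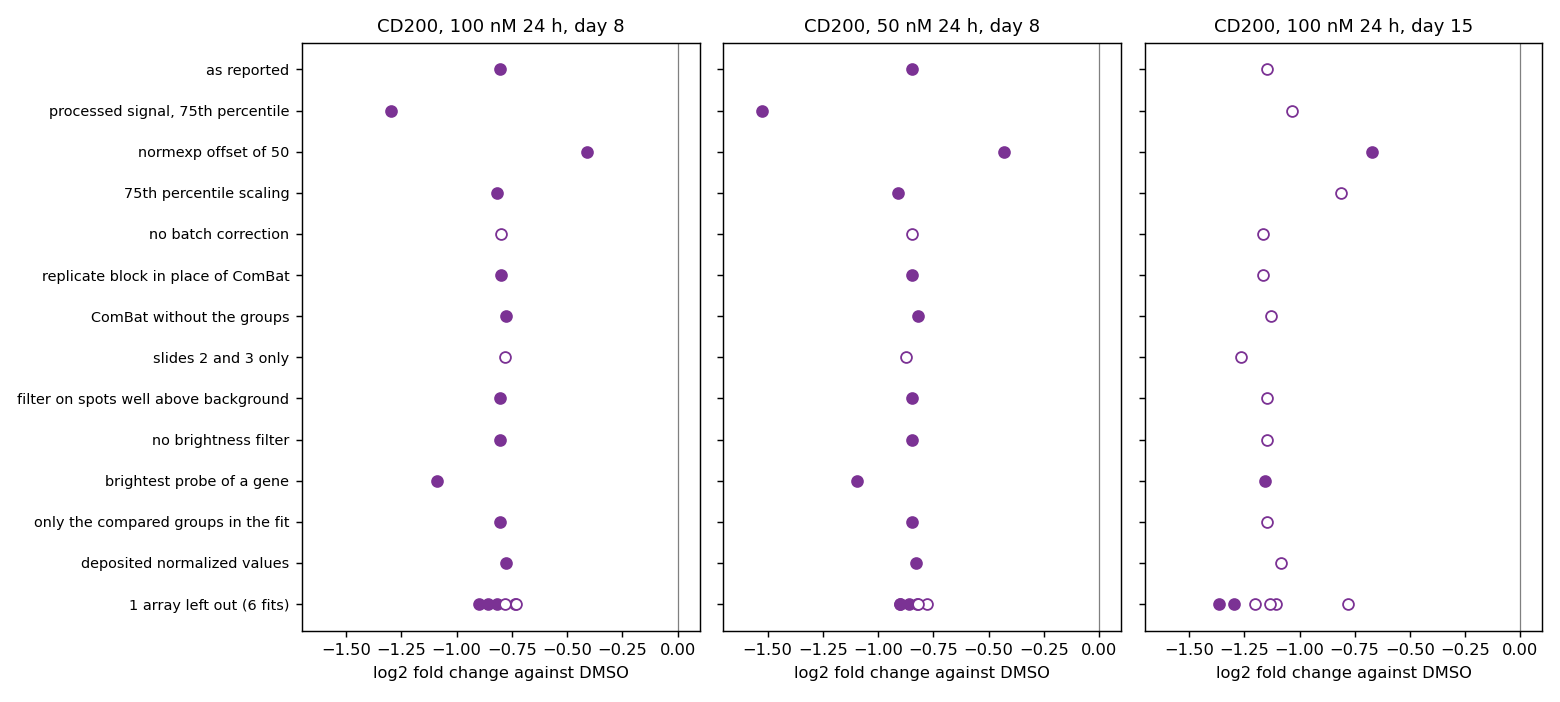
Log2 fold change of CD200 against DMSO under each way of processing the arrays (rows), for 100 nM and 50 nM over 24 h on day 8 and 100 nM on day 15. Filled points have an adjusted p under 0.05, and the lowest row holds the 6 fits without 1 array; every value lies below 0, between -1.53 and -0.41.

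In DMSO, CD200 rose between day 8 and day 15 by 1.04 (SE 0.21), 2.06-fold (adjusted p = 0.00102), and by 1.28 on its first probe. Without DMSO replicate 1 of day 15 the rise was 0.9997 (adjusted p = 0.00612), and with slides 2 and 3 alone it was 0.94 (adjusted p = 0.109). Ordered by the mean of the first probe, the 8 groups ran from 5.56 after 50 nM for 24 h and 5.56 after 100 nM on day 8, through 6.30 after 50 nM for 12 h, to 6.65 in DMSO of day 8. They went on with 6.78 after 100 nM on day 15, 7.48 after 50 nM for 12 h, 7.49 after 50 nM for 24 h and 7.94 in DMSO of day 15. Of these neighbours, the 24 h groups of day 8, DMSO of day 8 and 100 nM of day 15, and the 50 nM groups of day 15 overlapped in their arrays. Of the arrays of 100 nM on day 15, those of slides 1 and 2 lay above the DMSO arrays of day 8, and that of slide 3 lay below them.

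Whether the response of CD200 differed between days was asked by the interaction of day and rotenone. The difference between the day 15 and the day 8 response was -0.34 for 100 nM (95% interval -0.96 to 0.27, adjusted p = 0.669) and 0.47 for 50 nM over 24 h (-0.14 to 1.09, adjusted p = 0.544). The sign for 100 nM was not stable, with 0.02 when the slide 3 array that stood apart was left out, 0.26 with the processed signal and 0.0039 with 75th percentile scaling. These values average both probes. After 100 nM the first probe differed from DMSO by -1.09 on day 8 and by -1.16 on day 15. The second differed by -0.52 and -1.14, and on day 8 no array of 100 nM had it well above background. With Agilent's processed signal in place of the corrected intensities, the interaction for 50 nM was 1.18 (adjusted p = 0.0133). On day 15, 100 nM read 0.77 below 50 nM at 24 h (95% interval of the log2 difference -1.21 to -0.34, adjusted p = 0.41), and 3 of 3 arrays were lower. Without the slide 3 array of 100 nM that stood apart this was -0.41. On day 8 the same difference was 0.04 (-0.39 to 0.48). Comparing the longer with the shorter exposure to 50 nM on day 8, CD200 differed by -0.42 (-0.86 to 0.01, adjusted p = 0.477), and its first probe by -0.74 (adjusted p = 0.19). With the processed signal this difference was -1.16 (adjusted p = 0.00399). On day 15 the difference between 24 h and 12 h was 0.11 (-0.32 to 0.55). The spread of the 10 spots of the first probe within an array had a median SD of 0.16, and the median SD between arrays of a group was 0.16.

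CD47 fell after 24 h of rotenone on day 8 and was lower still on day 15, where rotenone groups and DMSO were not separated. Its single probe was well above background on all 24 arrays. On day 8 it read 10.72, 10.44 and 10.42 in DMSO, 10.51, 10.41 and 10.16 after 50 nM for 12 h, and 10.17, 10.09 and 10.15 after 50 nM for 24 h. After 100 nM it read 10.03, 10.18 and 10.05. The 24 h arrays lay below the 3 DMSO arrays, and those of 12 h overlapped them. CD47 fell by 0.44 (SE 0.11), 1.35-fold, after 100 nM (adjusted p = 0.0122) and by 0.39, 1.31-fold, after 50 nM for 24 h (adjusted p = 0.0299). With 50 nM for 12 h the difference was -0.17 (95% interval -0.39 to 0.06). Leaving out DMSO replicate 1, the highest array, gave -0.34 after 100 nM (adjusted p = 0.0828) and -0.29 after 50 nM (adjusted p = 0.167). The call after 100 nM was also lost without the slide adjustment (0.0618), with slides 2 and 3 alone (0.366), with only the compared groups in the fit (0.0894) and without 100 nM replicate 1 (0.0568). That after 50 nM was lost under the same 3 ways of processing (0.123, 0.407 and 0.119), with the processed signal (0.07), with 75th percentile scaling (0.0722) and without any 1 of the 50 nM arrays (0.0675, 0.0957 and 0.0743).

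On day 15 CD47 read 9.39, 9.61 and 9.74 in DMSO and 9.68, 9.77 and 9.63 after 100 nM. The difference was 0.11 (95% interval -0.11 to 0.34), 0.15 without the 100 nM array on slide 3 and 0.020 without DMSO replicate 1, and after 50 nM it was -0.10 at 24 h and 0.11 at 12 h. In DMSO, CD47 fell between day 8 and day 15 by 0.95 (SE 0.11), 1.93-fold, with an adjusted p of 2.14e-06, and by 0.85 without DMSO replicate 1 of day 15. All 12 arrays of day 15 lay below the 12 arrays of day 8, opposite to the change of CD200. The response to 100 nM differed between days by 0.55 (95% interval 0.24 to 0.87), with an adjusted p of 0.0612, and by 0.46 and 0.58 without DMSO replicate 1 or 100 nM replicate 3 of day 15. Without DMSO replicate 3 of day 15 it was 0.63 (adjusted p = 0.0412). The adjusted p was also below 0.05 with an offset of 50 (0.0226), with the filter on well above background spots (0.0323) and with the deposited normalized values (0.0265).

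CD24, a small glycosylphosphatidylinositol-anchored sialoglycoprotein that marks immature neurons, fell on day 8 by about as much as CD47. Its calls after 24 h at both doses depended on the scaling of the arrays, as did that of CD47 after 50 nM. CD24 has near-identical pseudogene copies, and its probe may read them as well. It read 15.12, 15.23 and 15.04 in DMSO of day 8, 15.02, 14.88 and 14.95 after 50 nM for 12 h, and 14.63, 14.75 and 14.72 after 50 nM for 24 h. After 100 nM it read 14.59, 14.81 and 14.66. All 9 exposed arrays of day 8 lay below the 3 DMSO arrays. CD24 fell by 0.44 (SE 0.083) after 100 nM (1.36-fold, adjusted p = 0.00173) and by 0.43 after 50 nM for 24 h (1.35-fold, adjusted p = 0.00254). With 50 nM for 12 h the difference was -0.18 (adjusted p = 0.274). With 75th percentile scaling in place of quantile normalization the values were -0.17 after 100 nM (adjusted p = 0.257) and -0.12 after 50 nM for 24 h (adjusted p = 0.514). With the processed signal they were -0.17 and -0.12 (adjusted p = 0.182 and 0.46). Without the slide adjustment, with slides 2 and 3 alone and with only the compared groups in the fit, the adjusted p after 100 nM was 0.0846, 0.174 and 0.068, and after 50 nM for 24 h it was 0.106, 0.185 and 0.0688. On day 15, CD24 read 14.93, 14.74 and 14.77 in DMSO and 14.67, 14.85 and 14.78 after 100 nM, and the difference was -0.04 (95% interval -0.22 to 0.13). In DMSO it fell by 0.32 between day 8 and day 15 (1.25-fold, adjusted p = 0.00819), and by 0.38 without DMSO replicate 1 of day 15. With 75th percentile scaling this was -0.21 (adjusted p = 0.0613), and the call was also lost without the slide adjustment (0.133), with slides 2 and 3 alone (0.0748) and with only the compared groups in the fit (0.0877). The response of CD24 to 100 nM differed between days by 0.40 (95% interval 0.15 to 0.64, adjusted p = 0.0833), and by 0.36 for 50 nM over 24 h (adjusted p = 0.12). With 75th percentile scaling these were 0.045 and -0.020. For 100 nM the value was 0.066 with the processed signal, and the adjusted p was below 0.05 with an offset of 50 (0.0302), with the filter on well above background spots (0.0434) and with the deposited normalized values (0.0383).

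**Figure D3:**
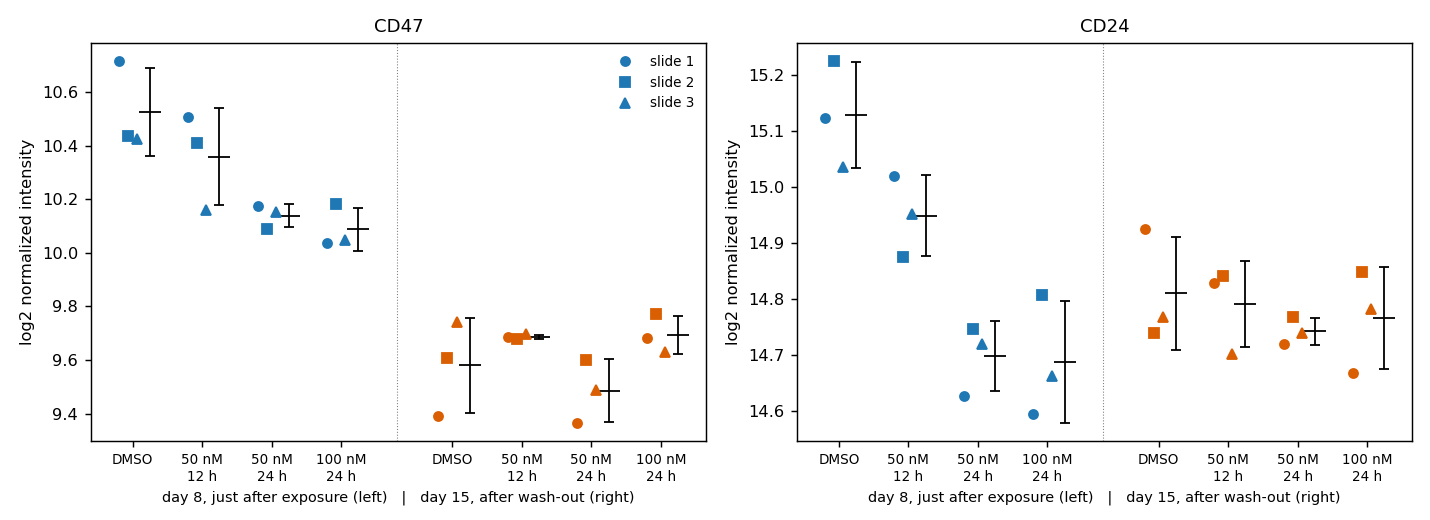
Log2 normalized intensity of CD47 (left) and CD24 (right) by dose and duration on day 8 (blue) and day 15 (orange). Symbols are arrays by slide and bars are mean ± SD of 3 arrays; the CD47 arrays of day 15 all lie below those of day 8, and the 24 h groups of day 8 lie below DMSO for both genes.

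Counted over the 6 members tested, 3 fell after 100 nM for 24 h on day 8 (adjusted p under 0.05), against 5.43% of all genes, and 0 rose, against 4.09%. The same 3, CD200, CD47 and CD24, fell after 50 nM for 24 h, against 4.36% of all genes. With a fold over 1.5 asked as well, CD200 was the 1 member called in each, where 3.48% and 2.82% of all genes were called in either direction. The median log2 difference of the members after 100 nM was -0.27, beside -0.02 over all genes. At 12 h of 50 nM, 0 members passed, and 5.52% of all genes did. On day 15, 0 members and 0% of all genes passed in each of the 3 comparisons with DMSO. At an unadjusted limma p under 0.05, 1526 genes were counted after 100 nM, 697 after 50 nM for 24 h and 740 after 50 nM for 12 h, including 2, 0 and 2 members. Between day 8 and day 15 in DMSO, 2 members fell and 1 rose, where 13.2% of all genes fell and 10.1% rose. CD200 and CD47 also passed the fold, as 12.2% of all genes did. In the interactions 0 members passed, against 2.47% of all genes for 100 nM and 2.2% for 50 nM. Between doses at 24 h, 0 members passed on day 8 (0% of all genes) and on day 15 (0.0377%). Between the longer and the shorter exposure to 50 nM, 0 passed on day 8 (0.532%) and day 15 (0%).

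**Figure D4:**
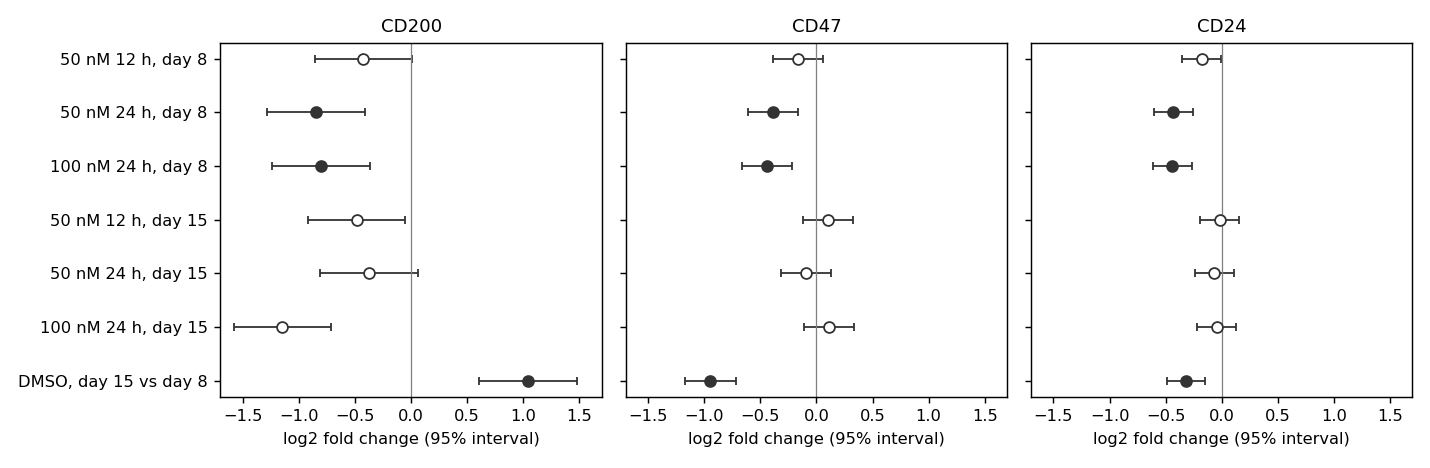
Log2 fold change with 95% interval of CD200, CD47 and CD24 in the 6 comparisons of rotenone with DMSO and in day 15 against day 8 of DMSO. Filled points have an adjusted p under 0.05; CD200 and CD47 lie on opposite sides of 0 in the comparison of days, at 1.04 and -0.95.

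The growth factors of microglia, CSF1 and IL34, and the lectin CD22 were read at low signal. CSF1 had 3 probes against different transcripts, well above background on 22, 10 and 2 of 24 arrays. On day 15 the brightest read 6.08, 6.29 and 6.43 in DMSO and 6.32, 5.99 and 4.45 after 100 nM, a difference of -0.68 (SE 0.30, adjusted p = 0.705). The second read 4.97, 3.89 and 4.22 in DMSO and 4.98, 5.23 and 4.81 after 100 nM, a difference of 0.65 (SE 0.25, adjusted p = 0.694). Neither passed the test, and in each group the second stood clear of background on only 1 of 3 arrays. Within slides the brightest probe differed by 0.12, -0.25 and -2.10, the last on the slide 3 array that stood apart. The average of the 3 probes gave 0.42 (adjusted p = 0.582), 0.39 without that array, and with the brightest probe alone the sign turned, to -0.68. On day 8 the average was -0.11 after 100 nM (95% interval -0.40 to 0.18) and -0.11 after 50 nM for 24 h.

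**Figure D5:**
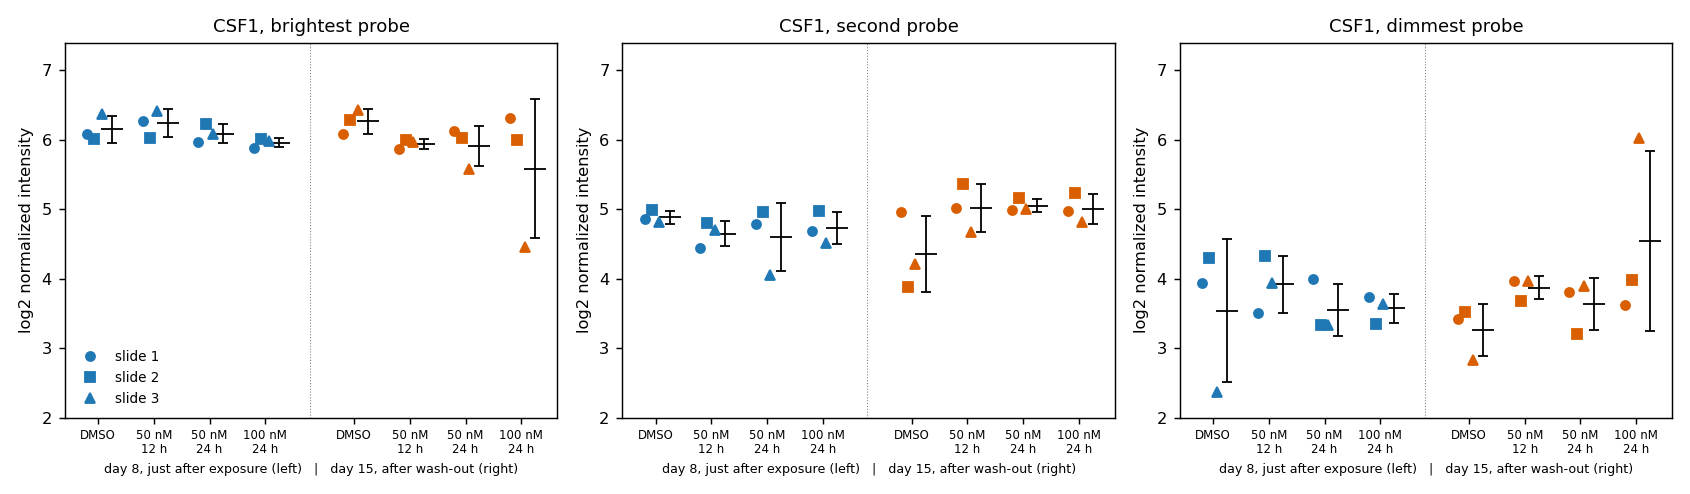
Log2 normalized intensity of the 3 probes of CSF1 by dose and duration on day 8 (blue) and day 15 (orange), with the same vertical axis. Symbols are arrays by slide and bars are mean ± SD of 3 arrays; on day 15 after 100 nM the slide 3 array is the lowest on the brightest probe, at 4.45, and the highest on the dimmest, at 6.03.

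IL34 was read by 1 probe in 10 spots, which was well above background on the 8 arrays of slide 1 and on 0 of the 16 arrays of slides 2 and 3. Its values lay between 3.66 and 4.22 on all arrays, and its spots had a median SD of 0.34 within an array. The difference was 0.08 after 100 nM on day 8 (95% interval -0.23 to 0.38) and 0.04 on day 15 (-0.27 to 0.35). CD22 was well above background on 2 of 24 arrays, 1 after 50 nM for 12 h and 1 after 100 nM, both of day 15, and no fold is given for it. Its values lay between 2.52 and 4.95 on the 24 arrays.

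The receptors and binding partners of these ligands were looked for next, from a list of 11 genes of which 10 had a probe. SIRPA, SDC1, THBS1 and PTPRC were well above background in at least 1 group, and CD200R1, CX3CR1, CSF1R, SIGLEC10, SIRPG and PTPRZ1 in no group. SIRPA, the receptor of CD47, lay between 6.98 and 7.80 on the 24 arrays and differed by 0.01 after 100 nM on day 8 (adjusted p = 0.984). THBS1, a secreted ligand of CD47, differed by 0.04 (adjusted p = 0.953). SDC1, a binding partner of IL34 and 1 of 10 tested, rose by 0.38 after 100 nM on day 8 (adjusted p = 0.024). It also rose by 0.85 between day 8 and day 15 in DMSO (adjusted p = 4.8e-06). Over all genes 4.09% rose in the first of these comparisons and 10.1% in the second. On day 15, 0 of the 10 passed after 100 nM, as did 0% of all genes.

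Of 14 other ligands and regulators by which neurons restrain microglia or complement, 1 fell and 1 rose after 100 nM on day 8, near the 5.43% and 4.09% of all genes, with a median log2 difference of -0.08. Of the 14, 9 were measured, that is, well above background on all arrays of at least 1 of the compared groups. CD59, which blocks the membrane attack complex, fell by 0.76 (adjusted p = 0.000966), and CLU, a secreted chaperone that inhibits complement, rose by 0.57 (adjusted p = 0.00912). CSMD1, another complement inhibitor, differed by -0.18 (adjusted p = 0.54). Between day 8 and day 15 in DMSO, TGFB3 fell by 1.15 (adjusted p = 2.13e-06), and CSMD1 rose by 1.12 (adjusted p = 5.51e-06). On day 15 after 100 nM, 0 of the 14 passed, as did 0% of all genes. The smallest p belonged to CSMD3, which was not well above background on every array after 100 nM (adjusted p = 0.647). CSMD1 and CD55, which protects cells from complement, followed with -0.33 and -0.58 (adjusted p = 0.658 and 0.688).

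Sialic acids carried by neurons are the ligands of SIGLEC receptors, among them the partner of CD24, and 22 genes of their synthesis and transfer were tested. After 100 nM on day 8, 2 fell and 1 rose, beside 9.52% of all genes called in either direction, and 18 of the 22 were measured. ST8SIA3, which builds oligosialic acid, fell by 0.90 (adjusted p = 0.000197), ST6GAL1, which adds the linkage that CD22 binds, fell by 0.44 (adjusted p = 0.00236), and the lysosomal sialidase NEU1 rose by 0.41 (adjusted p = 0.00134). ST3GAL2 differed by 0.33 (adjusted p = 0.104). On day 15, 0 of the 22 passed after 100 nM, as did 0% of all genes, where ST8SIA3 differed by -0.15 (adjusted p = 0.809) and ST3GAL1 by 0.28 (adjusted p = 0.526). Between day 8 and day 15 in DMSO 4 rose, with ST3GAL1 at 0.87 and ST8SIA1 at 0.61, and 2 fell, NEU1 by 0.45 and ST3GAL2 by 0.53 (adjusted p = 2.83e-07, 0.000262, 0.000168 and 0.00307). Over all genes 10.1% rose and 13.2% fell, 23.3% together.

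Among 8 proteases and enzymes that process these ligands, 7 of them measured, QPCT alone passed after 100 nM on day 8. It rose by 0.58 (adjusted p = 0.00187), and 9.52% of all genes passed there in either direction. QPCT makes N-terminal pyroglutamate, the modification by which its relative QPCTL prepares CD47 for SIRPA. The sheddases ADAM10 and ADAM17 differed by -0.08 and 0.10 (adjusted p = 0.899 and 0.849). With maturation in DMSO, QPCT rose by 0.41 and MMP9, a gelatinase, by 1.22 (adjusted p = 0.011 and 0.0113). MMP2 fell, but was not well above background on every array of day 15 DMSO, and no fold is given for it. Of 22 phagocytic, chemotactic and alarm signals tested, 12 were measured on day 8 and 11 on day 15. After 100 nM on day 8, 0 passed, beside 9.52% of all genes in either direction. After 100 nM on day 15, 0 passed, as did 0% of all genes. Between day 8 and day 15 in DMSO 3 of these rose (10.1% of all genes), among them LGALS3 (adjusted p = 0.000202), a galectin, and the scramblase XKR8, by 0.40 (adjusted p = 0.000584). Another 3 fell (13.2% of all genes), among them the eat-me signal calreticulin, CALR, by 0.60 (adjusted p = 0.000281), and MFGE8, which was not well above background on every array of day 15 DMSO.

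The genes most like CD200 over the 24 arrays were ranked by Pearson correlation among 12830 genes well above background on all of them, as a description, since arrays of a group share their treatment. They were FGF9 (r = 0.943), ANKRD34A (0.939), LCP1 (0.930), LONRF2 (0.926) and DLG5-AS1 (0.921). LCP1, an actin-bundling protein, fell by 1.07 after 100 nM on day 8 (adjusted p = 4.05e-05) and rose by 1.24 between days in DMSO (adjusted p = 1.18e-06). On day 15 after 100 nM it differed by -0.84 (adjusted p = 0.0616), like CD200 without passing. FGF9, a growth factor of the fibroblast growth factor family, fell by 0.59 on day 8 (adjusted p = 0.00321) and differed by -0.53 on day 15 (adjusted p = 0.283). Nearest to CD47 were ETV1 (0.959), a transcription factor of the ETS family, and IQCK (0.951), and nearest to CD24 were MAP6 (0.839), a microtubule stabiliser, and WLS (0.832), which carries WNT proteins to the surface. ETV1 fell by 1.57 between days in DMSO (adjusted p = 4.07e-09) and by 0.47 after 100 nM on day 8 (adjusted p = 0.00895). Over the 24 arrays CD200 and CD47 were correlated at -0.59, and CD47 and CD24 at 0.54.

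Of 9 neuronal markers 3 fell with these genes on day 8, against 5.43% of all genes, and their part in the result was not tested. MAP2, ELAVL4 and SNAP25 fell after 100 nM by 0.57, 0.51 and 0.30 (adjusted p = 0.00278, 0.00705 and 0.0399), and the median of the list was -0.25. Other ways of processing were read for the members only, not for these markers. TUBB3 and DCX differed by -0.25 and -0.45 without passing, and STMN2, RBFOX3, GAP43 and SYT1 by 0.04, 0.055, 0.087 and 0.25. The summed linear signal of the list was 174576 to 201318 in DMSO and 163671 to 173544 after 100 nM. Quantile normalized arrays read only relative amounts. A smaller share of neurons and less of these transcripts relative to a neuron's other RNA cannot be told apart in these bulk samples. On day 15 the median of the list after 100 nM was -0.03, and 0 of the 9 passed, as did 0% of all genes.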

How the data were processed

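RNA of LUHMES aggregates had been hybridized to 24 single-color arrays (8 groups of 3). Per the file headers, the deposited scanner files hold median spot and background intensity from Agilent Feature Extraction (11.5.1.1, and 12.0.0.7 on slide 2). The authors' deposited table of normalized log2 values was used as an alternative. Intensities were background corrected (limma 3.58.1, normexp, offset 0) and quantile normalized. Slide 1, which the labels call a repeat in need of correction, was adjusted to slides 2 and 3 by parametric ComBat with groups as covariates. Spots had to exceed 1.1 times the 95th percentile of negative controls on 3 arrays. Spots were averaged per probe and probes per gene, matched by RefSeq accession (30275 of 50599 probes named). Groups were compared in 1 limma fit of all arrays (R 4.3.3, lmFit and eBayes), with Benjamini-Hochberg adjustment over 21236 genes and a call at an adjusted p under 0.05, with or without a fold over 1.5. The procedure was tested on simulated data. The number of arrays limits the precision. Replicate number is slide number: residuals of same-numbered arrays correlated at 0.168 to 0.775 over 84 pairs, so the numbers pair the samples by slide. Members and gene lists were chosen with earlier results of these data known. Named genes were all members, up to 4 genes per list by smallest p in 3 comparisons (a selection of them is given), and the genes nearest CD200, CD47 and CD24. Figures were drawn with matplotlib.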

Additional observations from a re-analysis of the deposited data

How the results depend on the processing

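The 13 comparisons were recomputed under 12 other ways of processing and with each array left out, and counts below are members called at an adjusted p under 0.05 and a fold over 1.5. After 100 nM on day 8 and after 50 nM for 24 h on day 8 the count was 1, and became 0 with an offset of 50, with no batch correction and with slides 2 and 3 only, where fewer arrays were used. With the offset CD200 still had an adjusted p of 0.00807 and 0.00703, at log2 differences of -0.41 and -0.43, below the fold. Leaving out 1 array gave 0 to 1 in both. After 100 nM on day 15 the count was 0, and became 1 (CD200) with the offset of 50 and with the brightest probe, and 0 to 1 with 1 array left out. Between day 8 and day 15 in DMSO it was 2, and 1 with slides 2 and 3 only. For the interaction at 100 nM it was 0, and 0 to 1 with 1 array left out, namely CSF1 without DMSO replicate 3 of day 8 and CD47 without DMSO replicate 3 of day 15. For the interaction at 50 nM, and for the longer against the shorter exposure to 50 nM on day 8, it was 0, and 1 (CD200) with the processed signal. With the slide, that is the replicate number, as a block in place of ComBat, the counts were 1, 1, 0 and 2 after 100 nM and 50 nM for 24 h on day 8, after 100 nM on day 15 and between days, and the block changed no call.

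Signs turned for CSF1 after 100 nM on day 15, to -0.045 with the offset of 50 and to -0.68 with the filter on well above background spots or the brightest probe. Those last settings also gave -0.32 after 50 nM for 12 h on day 15 and -0.48 for the interaction at 100 nM. The CD24 interaction at 50 nM turned to -0.010 with the processed signal and -0.020 with 75th percentile scaling. The CD200 interaction at 100 nM, which did not pass the test, turned to 0.26 with the processed signal, to 0.0039 with 75th percentile scaling and to 0.02 without 100 nM replicate 3 of day 15. The processed signal moved the median of all genes to 0.10 after 100 nM on day 8 and 0.15 between days. The causes of these changes were not tested. Background correction of the mean spot signal was not run, since the files used here give the median. IL34 and CD22 were limited by signal over background.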
